A study of Mus musculus with 18 samples.

Results

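The endocannabinoid receptors and enzymes are the 9 genes that encode the cannabinoid receptors, *Cnr1* and *Cnr2*, and the enzymes that make and break down their main lipid ligands, *Dagla*, *Daglb*, *Mgll*, *Abhd6*, *Abhd12*, *Napepld* and *Faah*. They were taken by symbol, and each symbol matched 1 of the 55573 Ensembl genes counted. PolyA RNA was measured in the ipsilateral dorsal horn of the spinal cord (DHSC, segments L3 to L5) of adult C57BL/6J mice aged 8 to 12 weeks, 2 h after 2% formalin had been injected into a hind paw in a volume scaled to body weight. The 18 samples were 6 F1/proestrus and 6 F2/metestrus females and 6 males, where F1 and F2 stand for females with a short and a long quiet interval between the phases of formalin pain, and proestrus and metestrus are stages of the estrus cycle read from vaginal smears. All samples received formalin and no naive group was analysed here. The comparisons therefore concern sex and female group under formalin and not the response to formalin itself. The female groups differed in both cycle stage and the length of the quiet interval, so these cannot be told apart. Cycle stage below names this comparison of F2/metestrus with F1/proestrus. The labels number the samples of a group from 1 to 6 without saying whether each came from 1 animal. The methods give 6 males and 6 females of each group and speak of biological replicates. The p-values measure the spread between these samples.

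Endocannabinoids are lipid messengers that are made on demand from membrane lipids of the postsynaptic cell and act backwards on the presynaptic terminal. 2-arachidonoylglycerol (2-AG) is produced from diacylglycerol by the diacylglycerol lipases, and anandamide is released from N-acyl phosphatidylethanolamines. In the dorsal horn, CB1, the receptor encoded by *Cnr1*, lowers transmitter release from primary afferent terminals and interneurons, while CB2, encoded by *Cnr2*, is known mainly from immune cells.

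Between 73590509 and 125724156 reads were counted on genes per sample. By the library numbers that head its columns, the count table holds a first series (27 to 35, replicates 1 to 3 of every group) and a second series (188 to 196, replicates 4 to 6), with 9 samples each. The labels and methods do not say what separates the series. Values are CPM, the read count of a gene scaled to the TMM-normalized library size, and levels of different genes are compared only as CPM per kilobase of exon (RPKM). The tests are edgeR's quasi-likelihood test over all genes with enough counts, with p-values adjusted by Benjamini-Hochberg and a threshold of 5%. Markers of neurons, astrocytes and oligodendrocytes had counts in all samples, with no marker at 0 throughout. The library F1/proestrus 5 stood apart, with a summed level of 5 sensory ganglion neuron markers of 377 CPM against 1.15 to 2.45 CPM in the other 17 samples. Results are therefore also given without it where it matters.

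The members lie on 6 chromosomes of GRCm38. *Cnr1* (ENSMUSG00000044288) occupies chr4:33924593-33948831 on the plus strand and *Cnr2* (ENSMUSG00000062585) chr4:135895394-135920207 on the plus strand. Of the other members, *Faah* (ENSMUSG00000034171) is also on chromosome 4, at chr4:115967145-116017926 on the minus strand. *Mgll* (ENSMUSG00000033174) is at chr6:88724412-88828360 on the plus strand and *Dagla* (ENSMUSG00000035735) at chr19:10245265-10304877 on the minus strand. Whether the counting used the strand is not stated. This bears on *Daglb* (ENSMUSG00000039206, chr5:143464584-143505942, plus strand), since 2309 of its 9567 exon bases (24.1%) also belong to *Rac1* on the opposite strand, and reads there cannot be assigned with certainty. *Mgll* shares 167 exon bases with the antisense gene *Gm26588*. The remaining members have no exon base in common with another gene of GENCODE vM21.

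Promoter sequences from RefSeq (GRCm38.p6, 250 bases before to 50 bases after a transcript start) were found for 7 of the 9 members, in 12 windows. *Cnr1* and *Cnr2* are shown because these receptors had the widest gap in RNA level between members that share a role. Bases of CG dinucleotides (CpG) are in capitals. The *Cnr1* window is chr4:33924394-33924693 and the *Cnr2* window chr4:135894939-135895238, both read 5′ to 3′ on the plus strand.
Cnr1: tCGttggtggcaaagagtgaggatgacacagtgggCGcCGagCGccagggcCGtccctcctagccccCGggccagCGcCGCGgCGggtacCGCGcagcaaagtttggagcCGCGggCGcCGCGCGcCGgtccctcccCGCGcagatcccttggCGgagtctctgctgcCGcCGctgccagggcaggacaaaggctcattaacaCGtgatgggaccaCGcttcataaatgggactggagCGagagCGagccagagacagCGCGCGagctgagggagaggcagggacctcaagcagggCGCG
Cnr2: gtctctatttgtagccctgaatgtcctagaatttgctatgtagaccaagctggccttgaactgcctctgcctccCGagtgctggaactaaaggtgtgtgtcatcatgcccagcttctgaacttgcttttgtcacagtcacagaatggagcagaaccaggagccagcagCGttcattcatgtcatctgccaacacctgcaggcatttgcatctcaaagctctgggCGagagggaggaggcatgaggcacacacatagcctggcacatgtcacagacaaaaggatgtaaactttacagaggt
The *Cnr1* window holds 33 CpG and is 69.0% G and C, whereas the *Cnr2* window holds 3 CpG and is 50% G and C. Across all 32851 windows of the same length the median was 7 CpG, and 91.4% of them held fewer CpG than this *Cnr1* window, against 23.3% for *Cnr2*. The windows of one gene differed: the other *Cnr1* starts had 40 and 5 CpG, the latter below that median, and the other *Cnr2* start had 3. The *Mgll* starts had 32 and 42, and the only *Daglb* and *Faah* windows had 11 and 16. On either strand, the estrogen response element GGTCANNNTGACC was found in 0 of the 12 member windows and in 0.07% of all windows. The glucocorticoid response element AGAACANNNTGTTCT was in 0 of 12 and 0.00913% of all. The GC box GGGCGG, which does not overlap these letters, was in 6 of 12 and 35.7% of all. The *Abhd6* windows overlap and share a GC box, so the windows are not independent. The TATA box TATAAA was in 0 of 12 and 13.6% of all. These are matches of letters, and the absence of a match says only that the letters are not in these windows.

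All 9 members were transcribed in the ipsilateral DHSC, over a 1248-fold range of levels per length. *Abhd12*, a serine hydrolase that cleaves 2-AG and lysophosphatidylserine, had the highest level, at 142 ± 7.49 RPKM (SD, n = 18). *Abhd6*, a membrane hydrolase that cleaves part of the 2-AG made in neurons, followed at 29.7 ± 1.58 RPKM. Neither range met that of the next gene in the order. *Mgll*, which encodes monoacylglycerol lipase, the main 2-AG hydrolase of the nervous system, was at 12.9 ± 1.74 RPKM. *Daglb*, the lipase that makes 2-AG chiefly in microglia and other immune cells, was at 10.8 ± 0.779 RPKM, and at 14.3 RPKM when only the exon bases not shared with *Rac1* were counted as length. The place of *Daglb* in the order therefore depends on the length used. *Faah*, the amidase that degrades anandamide, was at 8.0 ± 0.634 RPKM and *Cnr1* at 7.46 ± 0.918 RPKM. Their ranges overlapped, and *Faah* was above *Cnr1* in 12 of 18 samples. *Napepld*, the phospholipase D that releases anandamide, was at 6.38 ± 0.533 RPKM, below *Cnr1* in 17 of 18 samples. *Dagla*, the lipase that makes 2-AG at synapses, was at 4.66 ± 0.610 RPKM, below *Napepld* in 17 of 18 samples. *Cnr2* closed the order at 0.114 ± 0.0416 RPKM, a level 65.6 times lower than that of *Cnr1*. All 18 samples placed *Abhd12* above *Abhd6*, *Abhd6* above *Mgll*, and *Dagla* above *Cnr2*.

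**Figure D1:**
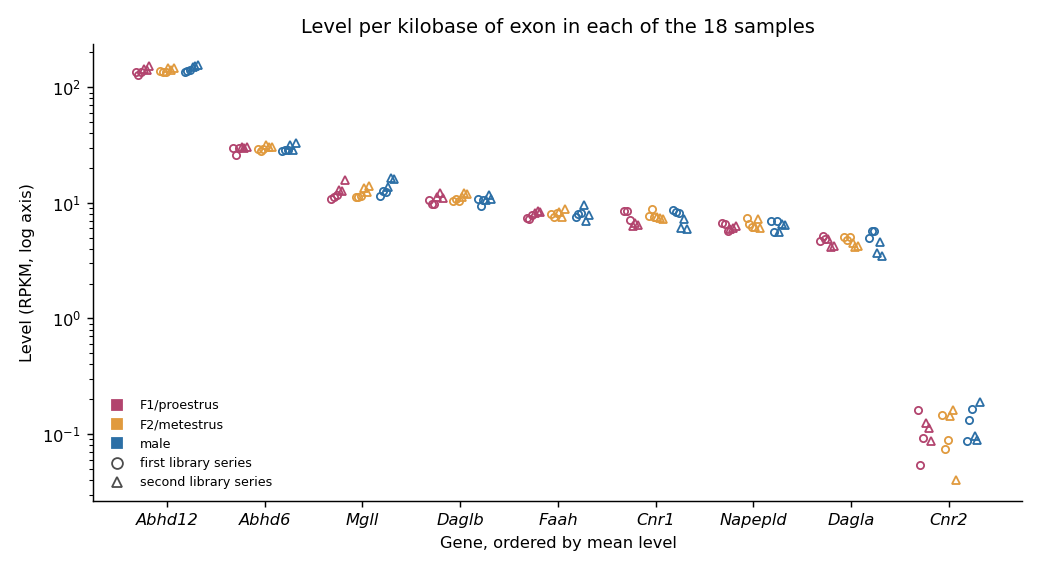
Level of each of the 9 genes per kilobase of exon (RPKM, log axis) in each of the 18 samples; genes are ordered by their mean, colour gives the group, and circles and triangles give the first and second library series. *Abhd12* lay between 127 and 156 RPKM, *Cnr2* between 0.0400 and 0.188 RPKM, and the 3 groups overlapped for every gene.

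None of the 9 members passed the threshold between males and females, and none did between F2/metestrus and F1/proestrus. Between the sexes 0 of 9 members passed the threshold, against 0.197% of all genes tested (49 of 24862; 0.149% higher and 0.0483% lower in males), and 0 of 9 had an unadjusted p under 0.05, against 9.72% of all genes. With the library series as a covariate 0 members passed, and 2 members, *Mgll* and *Abhd12*, had an unadjusted p under 0.05, against 16.4% of all genes. The median log2 fold change of males against females was 0.00 over the members and -0.00 over all genes. Between the female groups 0 of 9 members passed, and so did 0% of all genes (0 of 24042). An unadjusted p under 0.05 was reached by 0 members and by 2.48% of all genes. No member parted the groups fully, and 0.125% of all genes did so between the sexes and 0.108% between the female groups. DESeq2 likewise called 0 members in either comparison. The intervals bound what the data leave possible. For 8 members the 95% interval of the difference between the sexes stayed within 0.87-fold and 1.25-fold, and for *Cnr2* it ran from 0.81-fold to 1.72-fold. A p that misses the threshold does not show that the groups were alike.

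**Figure D2:**
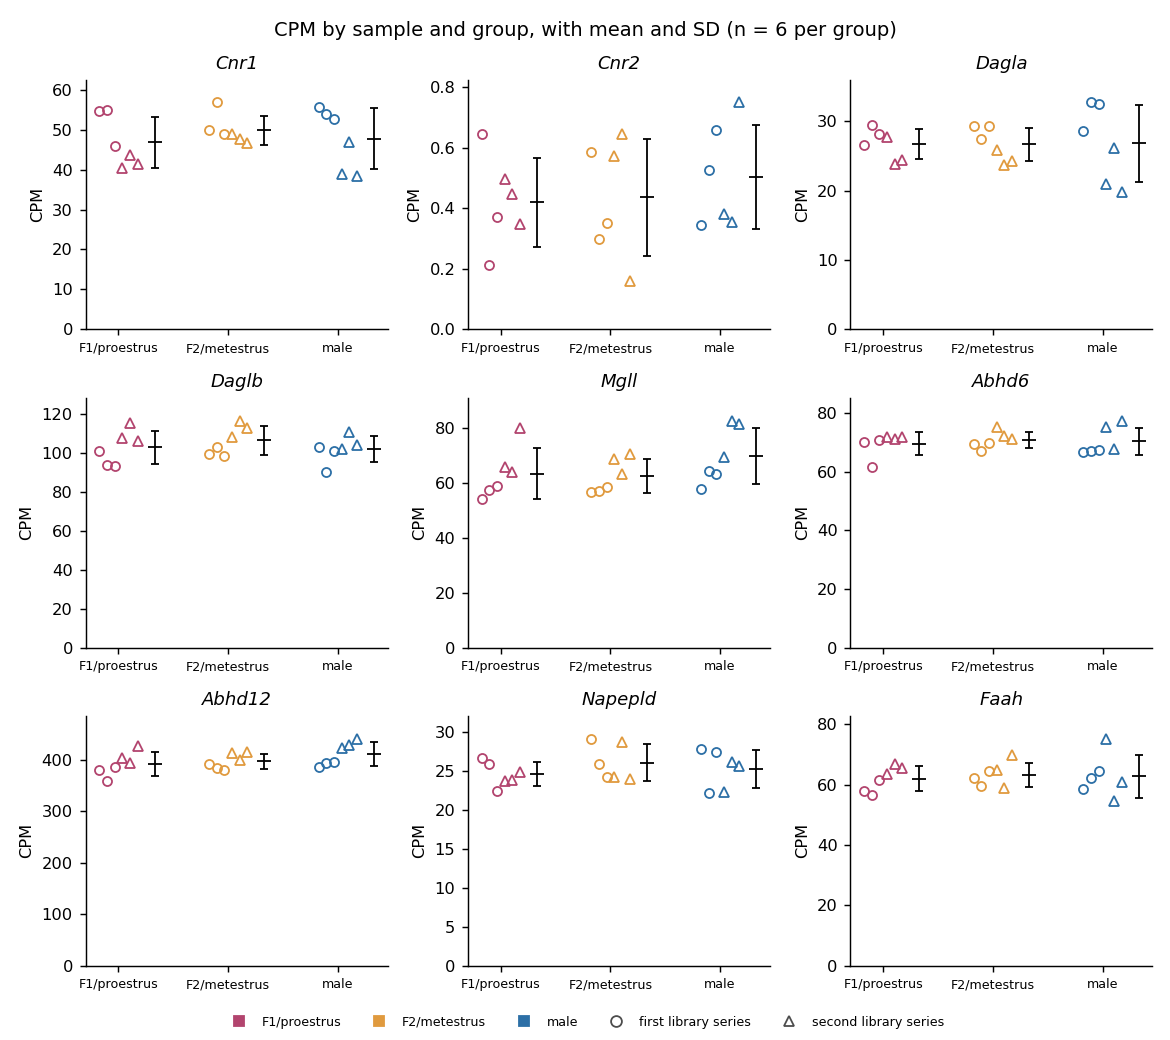
CPM of each member in each sample, by group on the horizontal axis; circles and triangles are the first and second library series, and bars give the mean and SD of 6 samples. The groups overlap in every panel, while circles lie mostly above triangles for *Cnr1* and *Dagla* and below them for *Mgll*, *Daglb* and *Abhd12*.

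Among the receptors, *Cnr1* had 40.5, 44.8 and 54.8 CPM in F1/proestrus as the lowest, median and highest sample. In F2/metestrus the corresponding values were 46.6, 48.9 and 56.8 CPM, and in males 38.4, 49.8 and 55.7 CPM. The lowest *Cnr1* samples were male 6, male 4 and F1/proestrus 4, all of the second series, and all 3 groups overlapped. The mean was 47.7 ± 7.69 CPM (SD, n = 6) for males and 48.3 ± 5.21 CPM (SD, n = 12) for females, with a log2 fold change of -0.02 (SE 0.086, 95% interval -0.20 to 0.16) and an adjusted p of 0.961. F2/metestrus against F1/proestrus gave 0.09 (SE 0.084, 95% interval -0.09 to 0.27) with an adjusted p of 1.0.

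*Cnr2* was counted with 16 to 89 reads per sample, all above 3 counts, and its precision was the lowest of the 9 members. F1/proestrus samples ranged from 0.214 to 0.646 CPM with a median of 0.408, F2/metestrus samples from 0.159 to 0.647 with a median of 0.462, and males from 0.345 to 0.750 with a median of 0.453. The highest sample was male 6 and the lowest F2/metestrus 6, and the groups overlapped throughout. The difference between males and females was 0.24 on the log2 scale (SE 0.261, 95% interval -0.31 to 0.78, adjusted p = 0.780), and it fell to 0.08 without male 6. Between the female groups it was 0.05 (SE 0.326, 95% interval -0.65 to 0.74, adjusted p = 1.0). As background for an immune cell receptor, 7 microglia markers summed to 357 to 402 CPM in males, 316 to 370 CPM in F1/proestrus and 334 to 375 CPM in F2/metestrus, with 0 of 7 past the threshold between the sexes and none at 0 counts in every sample. *Csf1r* passed without F1/proestrus 5, and *Csf1r* and *C1qa* passed with the library series as a covariate, both higher in males. The part of these cells in the *Cnr2* values was not tested. In bulk tissue, fewer cells of a type and less RNA per cell cannot be told apart.

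Neither 2-AG synthase passed the threshold in either comparison. *Dagla* was at 23.9, 27.2 and 29.5 CPM in F1/proestrus as the lowest, median and highest sample, at 23.8, 26.7 and 29.3 CPM in F2/metestrus, and at 19.8, 27.4 and 32.7 CPM in males. Males spread the most and held both the highest samples (male 2 and male 3, first series) and the lowest samples (male 6 and male 4, second series). The log2 fold change of males against females was 0.01 (SE 0.092, 95% interval -0.18 to 0.20, adjusted p = 0.984). Within the first series alone it was 0.13 and within the second -0.16, neither past the threshold. F2/metestrus against F1/proestrus gave -0.00 (SE 0.074, 95% interval -0.16 to 0.15, adjusted p = 1.0).

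*Daglb* had 103 ± 8.60 CPM (SD, n = 6) in F1/proestrus, 106 ± 7.50 CPM in F2/metestrus and 102 ± 6.68 CPM in males. Its lowest sample was male 2 at 90.3 CPM and its highest F2/metestrus 5 at 117 CPM. Males against females gave -0.04 on the log2 scale (SE 0.053, adjusted p = 0.825) and F2/metestrus against F1/proestrus gave 0.05 (SE 0.063, adjusted p = 1.0).

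*Mgll* was the member with the smallest p between the sexes, yet it did not pass the threshold. In males the 6 samples had 57.8, 64.3 and 63.1 CPM in the first series and 69.3, 82.8 and 81.6 CPM in the second series. F1/proestrus samples had 54.3, 57.6 and 58.9 CPM in the first series and 65.7, 64.2 and 80.0 CPM in the second. In F2/metestrus the values were 56.9, 56.9 and 58.5 CPM in the first series and 68.8, 63.3 and 70.7 CPM in the second. Males 5 and 6 and F1/proestrus 6 were the highest, all groups overlapped, and within each group each sample of the second series lay above all 3 samples of the first. Mean levels were 69.8 ± 10.3 CPM (SD, n = 6) for the males and 63.0 ± 7.44 CPM (SD, n = 12) for the females. The log2 fold change was 0.15 (SE 0.084, 95% interval -0.03 to 0.32), with an adjusted p of 0.563 (0.0899 unadjusted). With the library series as a covariate the log2 fold change was also 0.15 (SE 0.049, 95% interval 0.04 to 0.25), with an adjusted p of 0.148 (0.00704 unadjusted), in a fit that called 0.539% of all genes. It was 0.10 within the first series and 0.18 within the second, and it fell to 0.08 without male 5 and to 0.09 without male 6. The *Mgll* values of the female groups gave -0.02 (SE 0.090, 95% interval -0.21 to 0.17, adjusted p = 1.0). Male 5 also had the highest summed level of 5 Schwann cell markers, at 2189 CPM, where the males ranged from 898 to 2189 CPM, F1/proestrus from 602 to 1219 CPM and F2/metestrus from 627 to 931 CPM. In the female groups the highest sums were those of F1/proestrus 5 and F2/metestrus 3. *Mgll* was at 64.2 and 58.5 CPM in these 2 samples, which is not the highest value of either group. Of these markers 1 of 5, *Ncmap*, passed the threshold between the sexes (4 of 5 without F1/proestrus 5 and 2 of 5 with the series as a covariate, all higher in males), and the part of Schwann cells in the *Mgll* values was not tested.

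The other 2-AG hydrolases did not pass either. *Abhd12* was at 392 ± 23.4 CPM (SD, n = 6) in F1/proestrus, 398 ± 14.9 CPM in F2/metestrus and 411 ± 22.7 CPM in males, and its highest sample was male 6 at 442 CPM. Males against females gave 0.06 on the log2 scale (SE 0.041, 95% interval -0.03 to 0.14, adjusted p = 0.639; with the library series as a covariate SE 0.028, unadjusted p = 0.0465, adjusted p = 0.296), and F2/metestrus against F1/proestrus gave 0.02 (SE 0.048, adjusted p = 1.0). *Abhd6* was at 69.6 ± 3.96 CPM (SD, n = 6) in F1/proestrus, 70.8 ± 2.82 CPM in F2/metestrus and 70.3 ± 4.76 CPM in males. It differed by 0.00 between the sexes (SE 0.045, 95% interval -0.09 to 0.10, adjusted p = 0.988) and by 0.02 between the female groups (SE 0.049, adjusted p = 1.0).

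For anandamide, *Napepld* was at 22.4, 24.3 and 26.6 CPM in F1/proestrus as the lowest, median and highest sample, at 24.0, 25.1 and 29.1 CPM in F2/metestrus, and at 22.2, 25.8 and 27.7 CPM in males. All 3 groups overlapped. The log2 fold change was -0.00 between the sexes (SE 0.063, 95% interval -0.14 to 0.13, adjusted p = 0.986) and 0.08 between the female groups (SE 0.068, 95% interval -0.06 to 0.23, adjusted p = 1.0). *Faah* had 56.6, 62.6 and 66.9 CPM in F1/proestrus, 58.9, 63.3 and 69.9 CPM in F2/metestrus, and 54.7, 61.6 and 75.3 CPM in males as the lowest, median and highest sample. Males held both the lowest *Faah* sample (male 5) and the highest (male 4). The *Faah* log2 fold change was 0.00 between the sexes (SE 0.058, 95% interval -0.12 to 0.12, adjusted p = 0.994) and 0.03 between the female groups (SE 0.058, 95% interval -0.10 to 0.15, adjusted p = 1.0).

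The members did differ between the library series, where 5 of 9 passed the threshold, against 27.6% of all genes tested (6637 of 24038; 12.4% higher and 15.2% lower in the second series). *Cnr1* and *Dagla*, a receptor and a synthase, were lower in the second series, while *Mgll*, *Daglb* and *Abhd12* were higher. *Cnr1* was at 52.6 ± 3.62 CPM (SD, n = 9) in the first series and 43.6 ± 4.04 CPM in the second, a log2 fold change of -0.29 (SE 0.057, adjusted p = 0.000719). *Dagla* was at 29.4 ± 2.07 CPM in the first series and 24.1 ± 2.47 CPM in the second, a log2 fold change of -0.31 (SE 0.061, adjusted p = 0.000860). *Mgll* rose from 58.7 ± 3.13 to 71.8 ± 7.66 CPM, with a log2 fold change of 0.27 (SE 0.046, adjusted p = 0.000238). Smaller differences were those of *Daglb* at 0.14 (SE 0.038, adjusted p = 0.0108) and *Abhd12* at 0.10 (SE 0.025, adjusted p = 0.00696). *Abhd6* was at 0.08 (adjusted p = 0.0698), and it passed in 7 of the 18 fits that left out 1 sample (F1/proestrus 1, 3, 5 or 6, F2/metestrus 5 or 6, or male 5). It also passed in 3 of 4 other alternatives. Its adjusted p was 0.0323 in edgeR with the size factors of DESeq2, 0.0364 in edgeR with library totals only, and 0.0132 in DESeq2. *Abhd12* had an adjusted p of 0.0685 when low counts were not filtered. *Napepld*, *Faah* and *Cnr2* did not pass, at -0.07, 0.06 and 0.04. The ranges of the series met for each of the 9 members, whereas 4.22% of all genes had no overlap. Over all genes the median log2 fold change was -0.01, and each series holds 3 samples of every group, so the series are balanced over sex and cycle stage.

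**Figure D3:**
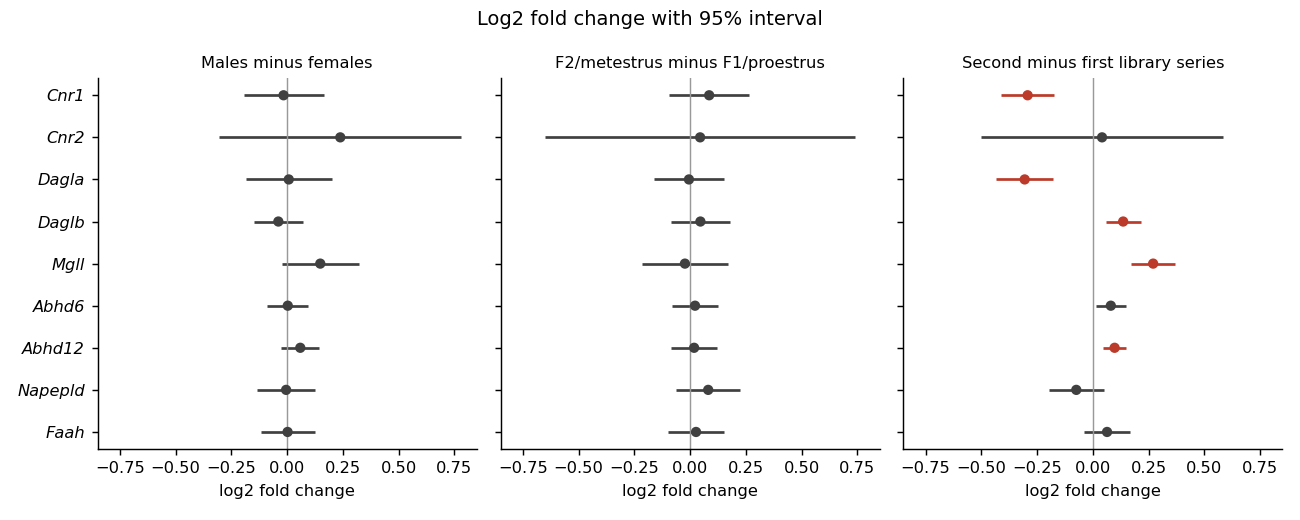
Log2 fold change (points) and 95% interval (lines) of each member in 3 comparisons: males minus females, F2/metestrus minus F1/proestrus, and the second minus the first library series; red marks an adjusted p under 0.05 in edgeR's quasi-likelihood test. No member is red for sex or cycle stage, and *Cnr1*, *Dagla*, *Daglb*, *Mgll* and *Abhd12* are red for the library series.

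The RNA of a synthase was set against that of a hydrolase as the log2 ratio of the counts of 2 genes within each sample. Such a ratio does not depend on the library total but does depend on gene length. Enzyme activity was not measured, and *Daglb*, *Abhd6* and *Abhd12* are left out of the ratios. For *Dagla* to *Mgll* this ratio was -1.24 ± 0.287 (SD, n = 6) in F1/proestrus, -1.23 ± 0.255 in F2/metestrus and -1.39 ± 0.473 in males. Males were lower than females by -0.16, which a two-sided exact permutation test over 18564 splits did not set apart (p = 0.357, adjusted over 4 tests 0.955), and the female groups differed by 0.01 (exact permutation test over 924 splits, p = 0.946, adjusted 0.955). The 9 first-series samples ranged from -1.06 to -0.95 and the 9 second-series samples from -2.05 to -1.24, with no overlap. Within the second series the males, at -1.72, -1.66 and -2.05, were lower than the females by -0.35 (exact permutation test, p = 0.0476, adjusted 0.190), and within the first series they were higher by 0.03 (exact permutation test, p = 0.333, adjusted 0.933). For *Napepld* to *Faah* the ratio was -1.34 ± 0.168 in F1/proestrus, -1.28 ± 0.203 in F2/metestrus and -1.31 ± 0.265 in males. It differed by -0.00 between the sexes (exact permutation test, p = 0.955, adjusted 0.955) and by 0.05 between the female groups (exact permutation test, p = 0.645, adjusted 0.955), and its ranges overlapped between the series.

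**Figure D4:**
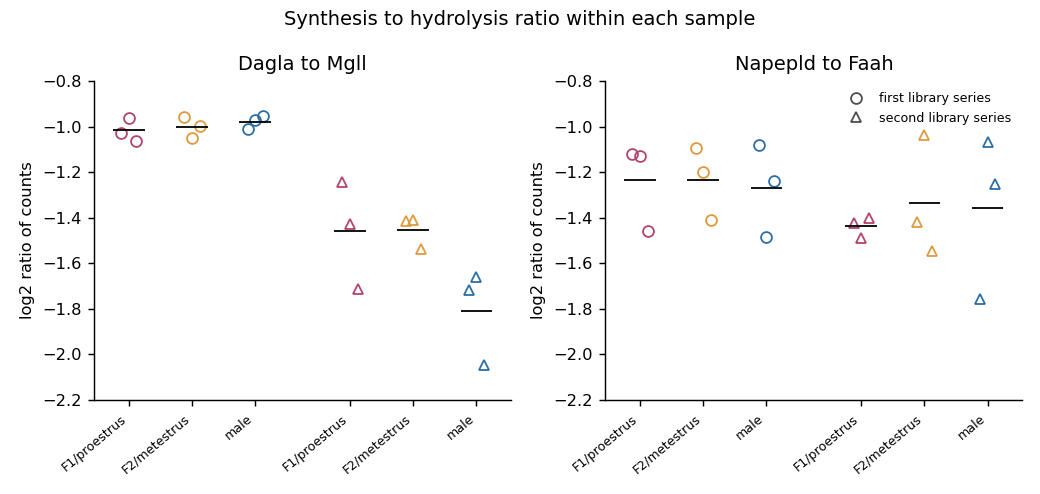
Log2 ratio of counts of *Dagla* to *Mgll* (left) and of *Napepld* to *Faah* (right) in each sample; the 3 columns of circles are the first library series and the 3 columns of triangles the second, coloured by group, and bars are means of 3 samples. On the left all circles lie above -1.07 on the axis and all triangles below -1.24, while on the right circles and triangles overlap.

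How the members varied with each other was described within each library series, over 9 samples of mixed groups, for 36 pairs in each series and 72 relations in all. The correlation was positive for 21 pairs in the first series and 12 in the second, and 19 of 36 pairs had the same sign in both. *Mgll* and *Abhd12*, both 2-AG hydrolases, had a Pearson r of 0.91 (permutation test, p = 0.00098, adjusted over 72 relations 0.0706) and a Spearman rho of 0.95 (permutation test, p = 0.00024, adjusted 0.0173) in the second series, and r stayed at 0.89 without the 2 samples farthest from the median. In the first series their r was 0.47 and it became -0.01 without the 2 farthest samples. *Dagla* and *Mgll* had an r of 0.93 in the first series (permutation test, p = 0.00205, adjusted 0.0738) with a rho of 0.70 (adjusted 0.503), and r was 0.68 without the 2 farthest samples and -0.23 in the second series. *Napepld* and *Faah* had an r of -0.21 in the first series and -0.80 in the second (permutation test, p = 0.0102, adjusted 0.246), with a rho of -0.78 there. By Pearson r, 0 of 72 relations had an adjusted p under 0.05, and 4 in each series had an unadjusted p under 0.05.

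The genes whose levels followed each member most closely were ranked by Pearson r over the 18 samples, after the mean of each library series had been removed, among 17763 genes with a mean of at least 1 CPM. *Mgll* was followed by *Camkv* and *Hpcal4*, both with an r of 0.95, and *Dagla* by *Clip2* at 0.90 and *Sipa1l1* at 0.89. *Abhd12* was followed by *Selplg* at 0.91, and *Cnr1* by *Fem1b* and *Tomm20*, both at 0.84. *Daglb* was nearest to *Me1* and *Mmgt1*, both at 0.92, and *Faah* to *Wwp2* and *Ggt7*, both at 0.92. *Napepld* was nearest to *E130311K13Rik* at 0.92 and *Elk4* at 0.91, and *Cnr2* to *Tgfb3* at 0.80 and *Gm26856* at 0.79. Among the genes closest to *Abhd6* was *Atp5b* at 0.87. No member was among the 2 nearest genes of another. Such values are the highest of many, and no p belongs to them.

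The wider pathway was read from a list of 38 genes in 7 groups: other receptors and channels, CB1-interacting proteins, other routes to N-acylethanolamines, other degradation and oxygenation, lipid carriers, supply of the diacylglycerol precursor, and G proteins of CB1. Of these 35 were tested for sex and for cycle stage, and 0 of 35 passed the threshold in either comparison. Of all genes tested, 0.197% passed for sex and 0% for cycle stage. With the library series as a covariate 0 of 35 passed again, against 0.539% and 0% of all genes. The median log2 fold change was 0.01 for sex and 0.01 for cycle stage. An unadjusted p under 0.05 was reached by 2 of 35 genes in each comparison, against 9.72% of all genes for sex and 2.48% for cycle stage. *Hrasls*, an acyltransferase that can form N-acyl phosphatidylethanolamine, had the smallest p between the sexes. It was at 28.0, 32.0 and 35.0 CPM in males as the lowest, median and highest sample and at 32.9, 35.5 and 40.3 CPM in females, so the sexes overlapped. Its log2 fold change was -0.17 (SE 0.058, unadjusted p = 0.00833, adjusted p = 0.333). *Alox15*, a lipoxygenase that can oxygenate endocannabinoids, had 0 to 27 counts per sample and a log2 fold change of -1.15 between the sexes (SE 0.632, adjusted p = 0.557).

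*Trpv1*, the heat- and capsaicin-gated channel of nociceptors that anandamide can open, was decided by 1 library. It had 32.2 CPM in F1/proestrus 5 (3683 counts), the library with the high sensory ganglion markers, and at most 0.356 CPM in the other 17 samples. With that library, *Trpv1* was lower in males than in females by -3.55 on the log2 scale (SE 1.54, adjusted p = 0.465) and lower in F2/metestrus than in F1/proestrus by -4.99 (SE 1.60, adjusted p = 1.0). Without it the values were 0.81 (SE 0.376, adjusted p = 0.506) and 0.87 (SE 0.488, adjusted p = 1.0), in the opposite direction. DESeq2 with all 18 libraries gave 0.78 for sex. The 9 members kept their side of the threshold for sex and cycle stage without this library.

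*Fabp7*, a fatty acid binding protein of glia and their precursors, had 28.6, 43.7 and 55.4 CPM in F1/proestrus as the lowest, median and highest sample and 31.1, 34.8 and 37.4 CPM in F2/metestrus. The log2 fold change was -0.32 (SE 0.126, unadjusted p = 0.0226, adjusted p = 1.0), with -0.05 in the first series and -0.56 in the second. *Gdpd3*, a lysophospholipase D of a further route to N-acylethanolamines, had 25 to 77 counts per female sample and a log2 fold change of -0.39 (SE 0.208, adjusted p = 1.0).

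Between the library series, 16 of 34 pathway genes passed the threshold, 9 higher and 7 lower in the second series, against 27.6% of all genes. The lipid carriers, which bring anandamide to its intracellular enzymes, had 3 of 4 higher, and the genes of diacylglycerol supply had 1 of 8 higher and 5 of 8 lower. As examples chosen after their values were seen, *Fabp5* rose from 38.7 ± 2.30 to 51.6 ± 2.90 CPM (SD, n = 9), with no overlap between the series and a log2 fold change of 0.39 (adjusted p = 1.72e-06). *Grm5*, the metabotropic glutamate receptor that drives diacylglycerol formation, fell from 118 ± 9.56 to 88.2 ± 7.34 CPM, with a log2 fold change of -0.45 (adjusted p = 7.45e-06).

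Of 69 markers of 14 cell types, 65 were tested for sex and 2 passed, both higher in males, against 0.197% of all genes, while 0 of 65 passed for cycle stage. Without F1/proestrus 5, 6 of 64 markers passed for sex (0.311% of all genes), and with the library series as a covariate 5 of 65 passed (0.539%), all of them higher in males. *Mpo*, myeloperoxidase of neutrophils, averaged 0.861 ± 0.375 CPM (SD, n = 6) over the males and 0.334 ± 0.128 CPM (SD, n = 12) over the females, with a log2 fold change of 1.37 (adjusted p = 0.0161). Its adjusted p was 0.0560 without male 1, and 0.403 within the second series alone, where the log2 fold change was 0.79. Against F2/metestrus alone the adjusted p of *Mpo* was 0.174. *Ncmap*, a myelin protein of Schwann cells, had 50.3 ± 12.2 CPM in males and 31.6 ± 4.34 CPM in females, with a log2 fold change of 0.67 (adjusted p = 0.00654), and 0.44 (adjusted p = 0.333) and 0.85 (adjusted p = 0.0618) within the series. Against F1/proestrus alone its adjusted p was 0.124. All 5 neutrophil markers tested were higher in males with an unadjusted p under 0.05 in edgeR's test, against 9.72% of all genes. Of these, 1 passed the threshold. Neutrophil markers summed to 1.66 to 24.1 CPM over the samples, with medians of 3.05 CPM in F1/proestrus, 5.34 CPM in F2/metestrus and 9.88 CPM in males. Motor neuron markers summed to 11.6 to 96.6 CPM. Of the motor neuron markers, *Slc18a3* and *Chat* averaged 38.3 and 18.7 CPM in the first series, and *Isl1* and *Mnx1* 1.87 and 1.06 CPM. Whether these counts came from outside the dorsal horn was not tested. The part of neutrophils and motor neurons in the members' values was not tested either.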

How the data were processed

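The authors deposited raw counts of reads on the exons of 55573 Ensembl genes in 18 samples, without normalization. Per the labels and methods, reads were mapped uniquely to mm10 with Subread and counted with featureCounts. The submitters' notes give Subread 2.0.3, DESeq2 1.3.0 and bcl2fastq 2.20.0.422. For library preparation the labels describe SMART-Seq amplification and Nextera XT tagmentation, and the methods another kit. Strand use and the handling of reads shared by genes are not given in the sources used here. Of a deposited table of fold changes and p-values for 1 comparison, only the pairing of gene IDs and symbols was used.

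Genes were filtered with edgeR 4.0.16 (R 4.3.3; filterByExpr, minimum count 10, minimum total 15), scaled by TMM factors, and compared by the quasi-likelihood test, with Benjamini-Hochberg adjustment over all genes tested. Standard errors (SE) were obtained from the log2 fold change and the F statistic. Males were compared with all 12 females, and F2/metestrus with F1/proestrus in the 12 females. Exon lengths came from GENCODE vM21, which held 55394 of the gene IDs, and count the bases of all annotated exons of a gene. The order of all members by RPKM rests on these lengths, and which transcripts were present was not tested. DESeq2 1.42.0 was an alternative. Ratios were compared with exact permutation tests, and correlations with 100000 resamples. The fits were checked on simulated counts. The 9 members and the lists were chosen with earlier results of these data known. Named are all members, the pathway genes past the threshold for sex or cycle stage or otherwise the 3 with the smallest p in each, the markers past it, and the 2 nearest genes of each member, of which 1 each for *Abhd6* and *Abhd12* is not reported here. Total counts of 73590509 to 125724156 per sample gave every member but *Cnr2* at least 1552 counts per sample. The series were split by library number. DESeq2 with the series as a covariate and the values of the pathway and marker genes under the alternatives were added after seeing the data.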

Additional observations from a re-analysis of the deposited data

Results flagged for a closer look

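Of 27 sets of 6 values (9 members in 3 groups), 2 held a sample farther from the rest than Dixon's 95% critical value for the gap over the range, and chance flags about 1 in 20. *Cnr1* had 56.8 CPM in F2/metestrus 2, where the other F2/metestrus samples lay between 46.6 and 49.8 CPM (gap over range 0.687). The difference between the female groups fell from 0.09 to 0.04 on the log2 scale without this sample, with no change of call. *Abhd6* had 61.6 CPM in F1/proestrus 2, where the other F1/proestrus samples lay between 70.0 and 72.0 CPM (gap over range 0.807). Both samples belong to the first library series.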

How the results depend on the processing

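The call of every member for sex and for cycle stage (not past the threshold) was the same under all alternatives run. The number of all genes called between the sexes was 49 and moved to 166 with DESeq2, 148 with a replicate block, 134 with the library series as a covariate, 729 with DESeq2 and the series together, 16 and 13 in the first and second series alone, 23 against F1/proestrus and 32 against F2/metestrus, and 25 to 77 with each sample left out (lowest without male 5, highest without F1/proestrus 5). Between the female groups DESeq2 called 2 genes with and without the series as a covariate, against 0. The labels do not say whether the replicate numbers pair the samples. Correlations of same-numbered samples, group means removed, ran from -0.10 to 0.23, and from -0.11 to 0.13 with series means removed as well. With group means removed, the closest sample of another group bore the same number in a minority of cases. For example, F1/proestrus 1 was closest to male 1 among the males but to F2/metestrus 2 among F2/metestrus. No such comparison was made with series means removed, and the values cannot decide on pairing. Under the replicate block 0 members were called for sex or cycle stage. The library series called 5 members and 4 to 6 under the alternatives. Over all genes it called 6637 (27.6%), 5832 to 6913 with each sample left out, and 5837 to 7422 under the other alternatives.

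Differences near 0 changed sign, and so did the larger one of *Trpv1*. Between the sexes *Dagla* (0.01) became -0.0012 with size factors, -0.00079 with DESeq2, -0.0092 with the replicate block, -0.0071 and -0.015 with the series as a covariate in edgeR and DESeq2, and -0.16 in the second series. *Faah* (0.00) became -0.0066 with size factors, -0.0035 without the filter, -0.0064 with DESeq2, -0.00092 with the block, -0.025 in the second series, -0.0054 with DESeq2 and the series, and -0.012 against F2/metestrus. *Abhd6* (0.00) became -0.0055 with size factors, -0.0021 without the filter, -0.0051 with DESeq2, -0.033 in the first series, -0.0057 with DESeq2 and the series, and -0.0093 against F2/metestrus. *Cnr1* (-0.02) became 0.049 in the first series and 0.029 against F1/proestrus, and *Napepld* (-0.00) 0.038 against F1/proestrus. *Trpv1* (-3.55) became 0.78 with DESeq2, 1.55 in the first series and 0.49 against F2/metestrus. The last 2 comparisons do not include F1/proestrus 5, and without that library alone *Trpv1* was at 0.81. Between the female groups the first series alone gave -0.0089 for *Cnr1*, 0.023 for *Dagla*, 0.0071 for *Mgll* and 0.63 for *Trpv1*, and the second gave -0.017 for *Faah*. The sex difference of the *Dagla* to *Mgll* ratio was 0.030 in the first series, and that of *Napepld* to *Faah* 0.026 in the second. Apart from the fits without F1/proestrus 5 for *Trpv1*, the cause of these changes was not tested.

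With each sample left out, the sex difference ranged from -0.076 to 0.029 for *Cnr1*, -0.065 to 0.070 for *Dagla*, -0.038 to 0.012 for *Abhd6*, -0.043 to 0.023 for *Napepld*, -0.063 to 0.028 for *Faah* and -3.68 to 0.81 for *Trpv1*. The cycle difference ranged from -0.092 to 0.22 for *Cnr2*, -0.034 to 0.029 for *Dagla*, -0.063 to 0.055 for *Mgll*, -0.0085 to 0.038 for *Abhd6*, -0.0040 to 0.046 for *Abhd12*, -0.0023 to 0.051 for *Faah* and -5.31 to 0.87 for *Trpv1*. The series difference of *Cnr2* ranged from -0.056 to 0.19. The ratio of *Dagla* to *Mgll* ranged from -0.25 to -0.030 for sex and from -0.084 to 0.073 for cycle stage, and that of *Napepld* to *Faah* from -0.053 to 0.084 and from 0.0033 to 0.11.

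Depth limits *Cnr2*, with 16 to 89 counts, while the other members had at least 1552 counts in every sample.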
